A study of Mus musculus with 41 samples.

Results

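Dio2, Il33, Nrn1, Nptx2, Calcrl, Pdlim3, Cacna2d1, Mtmr11 and Phldb2 are 9 mouse genes, none of them a transcription factor, that separate neurospheres grown from hindbrain from those grown from forebrain. They were chosen for that regional difference in the libraries described here, and they are 9 of the 34591 entries of the deposited table. All 9 were found, and all 9 passed the filter on low values in neurospheres and in tumors. The RNA-seq libraries numbered 41, from 12 neurosphere cultures and 29 brainstem tumors. Neurospheres are clusters of neural progenitors grown in suspension. They came from e15.5 embryos with the genotype Nestin-cre; H3f3aLSL-K27M-Tag/+ (K27M) or Nestin-cre; H3f3aLSL-WT-Tag/+ (WT-Tag), with 3 forebrain and 3 hindbrain cultures of each genotype. LSL is a stop cassette that Cre removes, so all groups, controls included, expressed a tagged histone H3.3 from 1 H3f3a allele, with lysine 27 changed to methionine in K27M and unchanged in WT-Tag. Each genotype had 1 forebrain and 1 hindbrain culture in each of experiments 1, 2 and 3. The cultures were female except the WT-Tag cultures of experiment 3, which were male. The 20 K27M and 9 WT-Tag tumors carried the same H3f3a alleles with Nestin-creERT2, LSL-PDGFRαV544ins and Trp53flox/flox, so the tumor controls also carried the mutant receptor that Cre switches on and the Trp53 alleles that it deletes. Nestin, whose regulatory sequence drives both Cre transgenes, is expressed in neural progenitors. The sources used here do not give the ages of the mice with tumors, and the tissue was a snap-frozen piece.

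The 9 genes have different functions and are not known as members of a single pathway. Dio2 encodes the deiodinase that activates thyroid hormone, in the brain mainly in glia. Il33 encodes a cytokine kept in the nucleus and released on damage, in the brain mainly by glia, and Calcrl encodes a receptor that responds to calcitonin gene-related peptide or adrenomedullin according to its RAMP partner. Nrn1 (neuritin) promotes neurite growth, Nptx2 is a secreted pentraxin that gathers AMPA-type glutamate receptors at synapses, and Cacna2d1 is an accessory subunit of voltage-gated calcium channels and a receptor for thrombospondins. Pdlim3 binds alpha-actinin on actin filaments, Phldb2 anchors microtubule ends at the cell cortex near adhesions, and Mtmr11 belongs to the myotubularin phosphatases but is thought to be catalytically inactive. H3.3 K27M inhibits Polycomb repressive complex 2, which methylates this lysine and is known to act mainly at promoters rich in CG dinucleotides.

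For that reason the CG content of the promoters is shown first. RefSeq windows of 300 bases (250 before to 50 after the start, build GRCm38.p6) matched 7 of the 9 genes, Il33 with 2 windows. CG dinucleotides numbered 42 in the Cacna2d1 window, 23 in that of Phldb2, 15 in that of Pdlim3, 7 in that of Calcrl, 6 and 5 in those of Il33, 4 in that of Mtmr11 and 3 in that of Dio2. The median over 32851 windows was 7, and 3.03% of windows held at least as many CG as Cacna2d1, 21.5% at least as many as Phldb2 and 34.6% at least as many as Pdlim3. The letters TATAAA, searched on both strands with any overlap allowed, were in the Dio2 window and both Il33 windows, 3 of 8, against 13.6% of all windows. These counts describe the letters and are not binding sites, and a link between CG content and the K27M changes was not tested. Windows to print were picked by the change in K27M hindbrain cultures, in which Pdlim3 (not printed) and Nptx2 (no window) also rose. Printed with CG in capitals are the windows of Il33 and Mtmr11, the members that fell there, and of Phldb2 and Cacna2d1, both of which rose. They lie at chr19:29924863-29925162 (plus strand, the upstream Il33 start), chr3:96161720-96162019 (plus strand, Mtmr11), chr16:45844329-45844628 (minus strand, Phldb2) and chr5:15934441-15934740 (plus strand, Cacna2d1).
Il33: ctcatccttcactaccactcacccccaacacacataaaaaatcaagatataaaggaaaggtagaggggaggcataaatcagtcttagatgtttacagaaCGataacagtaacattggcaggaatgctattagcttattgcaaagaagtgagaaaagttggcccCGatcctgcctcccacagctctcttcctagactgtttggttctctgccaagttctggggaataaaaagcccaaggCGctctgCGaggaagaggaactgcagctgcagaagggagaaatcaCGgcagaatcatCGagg
Mtmr11: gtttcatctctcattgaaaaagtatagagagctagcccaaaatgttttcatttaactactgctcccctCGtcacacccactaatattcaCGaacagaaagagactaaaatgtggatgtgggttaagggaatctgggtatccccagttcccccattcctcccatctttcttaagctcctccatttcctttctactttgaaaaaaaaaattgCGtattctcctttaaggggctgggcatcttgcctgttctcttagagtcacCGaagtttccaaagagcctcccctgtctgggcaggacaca
Phldb2: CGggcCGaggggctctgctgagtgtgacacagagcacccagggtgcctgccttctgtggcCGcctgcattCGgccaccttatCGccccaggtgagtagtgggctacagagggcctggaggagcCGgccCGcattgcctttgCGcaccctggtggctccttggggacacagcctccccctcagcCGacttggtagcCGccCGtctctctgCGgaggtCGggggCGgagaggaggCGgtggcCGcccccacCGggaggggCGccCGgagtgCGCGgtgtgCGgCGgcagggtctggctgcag
Cacna2d1: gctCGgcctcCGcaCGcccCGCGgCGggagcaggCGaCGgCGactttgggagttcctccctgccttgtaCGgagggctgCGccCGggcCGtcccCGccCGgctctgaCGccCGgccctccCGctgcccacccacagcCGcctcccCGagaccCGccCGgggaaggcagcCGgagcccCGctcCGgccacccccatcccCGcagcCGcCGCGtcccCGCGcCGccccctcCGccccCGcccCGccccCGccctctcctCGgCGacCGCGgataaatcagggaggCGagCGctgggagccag

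The labels of region and some libraries need a remark before the values. Values are FPKM, fragments scaled to transcript length and library size, so levels of different genes can be compared per length. Forebrain-labelled cultures had a summed FPKM of 11.3 to 17.4 over 6 forebrain factors (Emx2, Lhx2, Six3, Otx1, Emx1 and Dlx2) and at most 0.107 over 7 HOX genes of the hindbrain. WT-Tag hindbrain cultures had 0.299 to 1.32 and 1.25 to 8.96. The K27M hindbrain cultures had 1.69 to 1.96 of the forebrain factors but only 0.074 to 0.430 of the HOX genes, close to the forebrain level. Their forebrain sum was almost all Otx1 (1.593 to 1.86 FPKM, above the 0.947 to 1.589 of the forebrain cultures), while Emx2 and Lhx2 were at most 0.03, against at least 3.38 in forebrain. Emx2 and Lhx2 were thus low, as in the WT-Tag hindbrain cultures, but the HOX sum was below and Otx1 above the WT-Tag hindbrain values. What this means for the regional identity of the K27M hindbrain cultures was not tested. The WT-Tag hindbrain library of experiment 1 had the lowest HOX sum of its group (1.25). It and the WT-Tag forebrain library of experiment 1 also had the lowest astrocyte sums of their groups. The forebrain libraries of experiment 1 were the shallowest of the neurosphere libraries, with a relative depth of 0.451 (WT-Tag) and 0.308 (K27M). Depth is given relative to the median of all 41 libraries and was estimated from the steps between low FPKM values. The remaining 10 neurosphere libraries lay between 0.780 and 1.18. In the tumors the HOX sum was 5.09 to 19.2, and the forebrain sum, given beside the tumor results, was at most 3.19. Sex-linked transcripts of WT-Tag tumors 8 and 9 did not match their sex labels, so results are also given without them. Total read counts are not in the deposited table.

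Neurospheres from the 2 regions were separated by each of the 9 genes in both genotypes. This is what chose the genes, so the regional values are a description and no test is given. None of the 9 had overlapping forebrain and hindbrain libraries in either genotype, against 14.7% of the 13190 genes tested that did not overlap in WT-Tag and 31.9% in K27M. Nrn1 was at 14.6, 16.7 and 15.4 FPKM in the WT-Tag forebrain cultures of experiments 1, 2 and 3 and at 0.233, 0.235 and 0.451 in the hindbrain cultures. Its 50.7-fold difference of means put it first of all genes in the forebrain direction on the log2(FPKM + 1) scale. Dio2 came second, at 15.4, 20.1 and 21.001 FPKM in forebrain and 1.40, 1.35 and 0.959 in hindbrain. Nptx2 was 5.57-fold and Cacna2d1 9.49-fold higher in WT-Tag forebrain, ranks 7 and 10. Mtmr11 was the abundant but shallow case, at 25.994, 26.003 and 26.014 FPKM in the forebrain cultures and at 11.7, 13.7 and 13.3 in hindbrain, a 2.02-fold difference of rank 69.

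The 4 genes of the opposite direction included the gene of highest rank on that side. Il33 was at 2.25, 1.80 and 2.34 FPKM in WT-Tag forebrain and at 18.8, 29.2 and 37.3 in hindbrain, a 13.4-fold difference of means and rank 1. Pdlim3 followed at rank 3, at 0.782, 0.856 and 0.735 FPKM in forebrain and 19.4, 7.59 and 11.9 in hindbrain, 16.4-fold. Calcrl differed 6.24-fold at rank 10, and Phldb2, the smallest difference of the 4, differed 3.21-fold at rank 47. In K27M cultures all 9 genes kept their higher region, and the size of the difference changed with the gene. On the log2(FPKM + 1) scale it was wider than in WT-Tag for 3 genes, Calcrl, Mtmr11 and Phldb2, and narrower for the other 6. Among those 6, Dio2 was wider by the fold of means (15.2-fold in WT-Tag, 18.3-fold in K27M), and Nrn1 was no narrower without the K27M hindbrain library of experiment 3 (−3.67 in K27M, −3.66 in WT-Tag). The Pdlim3 difference was 2.87 in WT-Tag and 2.73 in K27M. Without the WT-Tag hindbrain library of experiment 1 its WT-Tag value was 2.56, so the K27M difference was then the wider. The Mtmr11 difference (hindbrain minus forebrain) went from −0.96 in WT-Tag to −1.89 in K27M and that of Phldb2 from 1.37 to 2.37, whereas that of Il33 went from 3.19 to 1.73 and that of Nptx2 from −2.10 to −0.97. These changes are built from the values that chose the genes and were not tested.

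**Figure D1:**
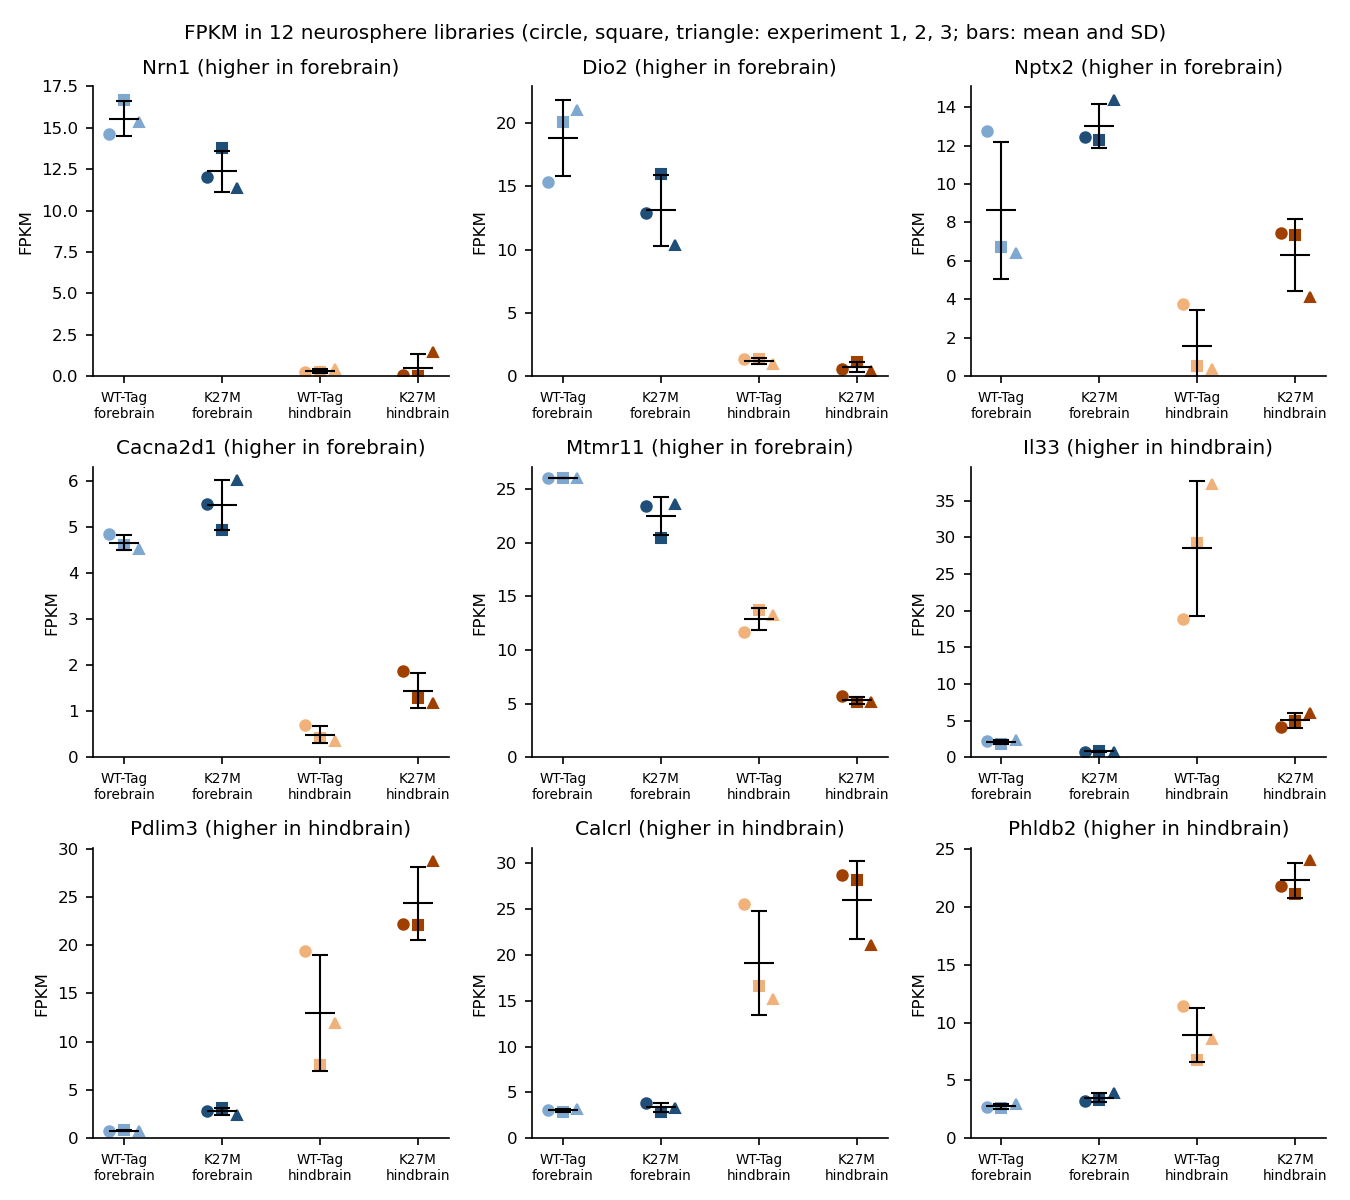
FPKM of the 9 genes (vertical axes, each from 0) in the 12 neurosphere libraries, by genotype and region. Circles, squares and triangles are experiments 1, 2 and 3 and bars are the mean and SD of 3 libraries (the lower bar of Nptx2 in WT-Tag hindbrain ends at the axis); forebrain and hindbrain points do not overlap in either genotype for any of the 9 genes.

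**Figure D2:**
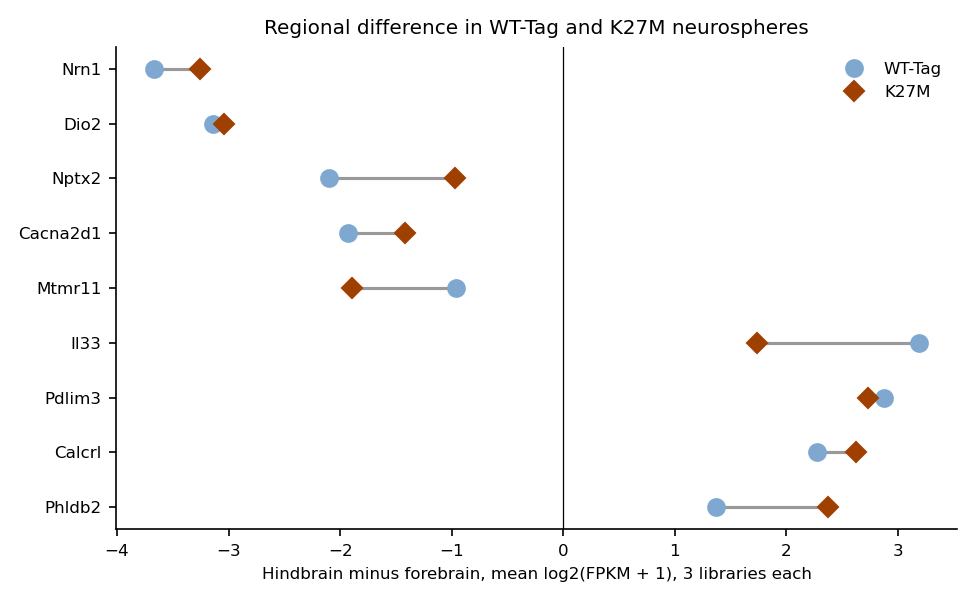
Hindbrain minus forebrain difference of mean log2(FPKM + 1) for each gene (3 libraries a group), in WT-Tag (circles) and K27M cultures (diamonds); negative values are higher in forebrain. Il33 and Nptx2 lie nearer to 0 in K27M, and Mtmr11 and Phldb2 farther from it.

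In hindbrain cultures, Il33 and Mtmr11 fell with K27M, and Phldb2, Cacna2d1, Nptx2 and Pdlim3 rose. That is 6 of 9 genes past an adjusted p of 0.05 in limma, 4 higher and 2 lower, where 13.5% of all genes tested passed (8.42% higher, 5.13% lower). Without adjustment 7 of 9 were under 0.05, against 30.8% of all genes. The genes were chosen from these same libraries, so nothing is read from the share. Whether cultures of a group came from different embryos is not stated, so p-values measure only the spread between these cultures. The changes crossed the regional grouping. Of the genes higher in WT-Tag hindbrain, Il33 fell while Pdlim3 and Phldb2 rose, and of those higher in forebrain, Mtmr11 fell while Nptx2 and Cacna2d1 rose. In these 6 the K27M and WT-Tag libraries did not overlap, as for 28% of all genes. The HOX sums of the hindbrain cultures also differed, at 0.074 to 0.430 with K27M and 1.25 to 8.96 with WT-Tag. For region-marking genes, an effect of K27M and a difference in regional identity cannot be told apart, here or where the regions are averaged below. The part of regional identity was not tested.

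Il33, the alarmin cytokine, was at 4.08, 4.99 and 6.01 FPKM in the K27M hindbrain cultures of experiments 1, 2 and 3, where the WT-Tag cultures had 18.8, 29.2 and 37.3. Every K27M culture lay well under the lowest WT-Tag culture. Its mean was 5.67-fold lower (log2 change −2.25 ± 0.20 SE, limma adjusted p = 0.000254, lower in 3 of 3 experiments). Mtmr11 was at 5.67, 5.14 and 5.12 FPKM with K27M against 11.7, 13.7 and 13.3. The 3 K27M cultures lay close together, all under the WT-Tag cultures, with a mean 2.43-fold lower (−1.14 ± 0.09, limma adjusted p = 7.11e-05). Phldb2, the microtubule anchor, went the opposite way, at 21.8, 21.1 and 24.031 FPKM against 11.4, 6.80 and 8.55. The WT-Tag culture of experiment 1 was the highest of its group but under every K27M culture, and the K27M mean was 2.50-fold higher (1.26 ± 0.15, limma adjusted p = 0.000875).

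Cacna2d1, the calcium channel subunit, was low in hindbrain cultures of both genotypes, at 1.88, 1.28 and 1.18 FPKM with K27M and 0.700, 0.414 and 0.361 with WT-Tag. The groups were separate and the mean was 2.94-fold higher with K27M (0.71 ± 0.13, limma adjusted p = 0.00737). Nptx2 was at 7.47, 7.34 and 4.14 FPKM against 3.75, 0.528 and 0.375. The WT-Tag culture of experiment 1 was just under the lowest K27M culture and far above the other WT-Tag cultures, so the 4.07-fold difference of means carried a wide error (1.73 ± 0.41, limma adjusted p = 0.0218). Pdlim3 was at 22.2, 22.1 and 28.7 FPKM against 19.4, 7.59 and 11.9, again with the WT-Tag culture of experiment 1 nearest to K27M. It was 1.88-fold higher (0.94 ± 0.24, limma adjusted p = 0.0284).

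Dio2, Nrn1 and Calcrl did not pass in hindbrain. Dio2 was at 0.580, 1.15 and 0.421 FPKM with K27M against 1.40, 1.35 and 0.959, which overlap (−0.40 ± 0.19, limma adjusted p = 0.175, 95% interval −0.81 to 0.01). Nrn1 was near 0 in both, at 0.06, 0.033 and 1.46 FPKM against 0.233, 0.235 and 0.451, with a difference of 0.10 ± 0.27 (limma adjusted p = 0.833) that was −0.32 without the K27M culture of experiment 3. Calcrl was high in both, at 28.7, 28.2 and 21.1 FPKM against 25.6, 16.6 and 15.2 (0.45 ± 0.18, limma adjusted p = 0.120, 95% interval 0.05 to 0.84).

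The WT-Tag hindbrain library of experiment 1 lay on the K27M side of the other WT-Tag libraries for 7 of the 9 genes. Without it Calcrl also passed (log2 change 0.66, limma adjusted p = 0.00602), 7 of 9 genes were called and the count over all genes was 4220 in place of 1787. Without experiment 3, in which the sexes differed, 2 of 9 remained, Il33 and Mtmr11, and with the hindbrain fitted alone 3 remained, Il33, Mtmr11 and Phldb2. The call of Pdlim3 was lost without any 1 of the hindbrain libraries other than WT-Tag 1 (adjusted p up to 0.0854). That of Nptx2 was lost without K27M 1 or 2 or WT-Tag 2 or 3 (up to 0.0929).

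Some marker lists of other cell types moved with genotype in the hindbrain cultures, and others overlapped between genotypes. The summed FPKM of 8 astrocyte genes (Gfap, Aqp4, Aldh1l1, Slc1a3, Slc1a2, S100b, Aldoc and Gja1), a lineage, though not the only one, in which Il33 and Dio2 are known to be expressed, was 195 to 214 with K27M and 385 to 634 with WT-Tag, with the lowest WT-Tag sum in experiment 1. That of 8 mature oligodendrocyte genes was 19.2 to 28.2 against 31.2 to 99.1, with Mog at 0 in all 3 K27M libraries. That of 9 pericyte and fibroblast genes was 23.044 to 28.7 against 8.07 to 28.3, which overlap, with the highest WT-Tag sum in experiment 1. That of 6 oligodendrocyte precursor genes, a list that shares Cspg4 with the pericyte list, was 407 to 456 against 359 to 495. Their part in the changes of the 9 genes was not tested. Genes of endothelium, a known site of Calcrl, summed to 0.392 to 1.08 FPKM in all neurosphere libraries (8 genes, Cdh5 at 0 in the 3 K27M hindbrain libraries) and microglial genes to 1.46 to 2.54 (7 genes). The 8 stem and progenitor genes summed to 2098 to 2551 in the neurospheres, but members of the list moved in opposite directions in hindbrain. Vim was at 916 to 991 FPKM with K27M against 328 to 624.8, and Fabp7 at 780 to 939 against 1272 to 1630. Their part was not tested either. In bulk libraries such as these, fewer cells of a type and less RNA per cell cannot be told apart.

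In forebrain cultures, none of the 9 genes passed the test, where 0.356% of all genes did and 13.1% had an unadjusted p under 0.05. At that unadjusted level there were 4 of 9, Dio2, Il33, Pdlim3 and Mtmr11. The libraries of the 2 genotypes did not overlap for 6 genes, Il33, Nrn1, Pdlim3, Cacna2d1, Mtmr11 and Phldb2, against 24.9% of all genes. Since the genes were chosen from these same libraries, nothing is read from these shares, as in hindbrain. Pdlim3, at 2.79, 3.14 and 2.44 FPKM with K27M and 0.782, 0.856 and 0.735 with WT-Tag, had the highest fold of the 9. Its means differed 3.53-fold (log2 change 1.08 ± 0.24 SE, limma adjusted p = 0.0986, 95% interval 0.55 to 1.61). Il33 was at 0.693, 0.929 and 0.776 FPKM against 2.25, 1.80 and 2.34, 2.67-fold lower on average (−0.80 ± 0.20, limma adjusted p = 0.138). Both signs were those seen in hindbrain.

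Mtmr11, at 23.5, 20.4 and 23.6 FPKM against 25.994, 26.003 and 26.014, had a log2 change of −0.20 ± 0.09 (limma adjusted p = 0.352). Phldb2 was at 3.21, 3.35 and 3.95 FPKM against 2.69, 2.63 and 3.01 (0.25 ± 0.15, adjusted p = 0.493). Dio2 was at 12.9, 15.992 and 10.4 FPKM against 15.4, 20.1 and 21.001 (−0.50 ± 0.19, adjusted p = 0.294). These 3 genes had in forebrain the sign that they had in hindbrain. Whether the K27M change of any gene differed between the regions was not tested, since that difference is also the change in the regional difference that chose the genes. The other 4 genes had log2 changes from −0.31 (Nrn1) to 0.60 (Nptx2) and adjusted p-values from 0.563 to 0.854.

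Calls in forebrain depended on how the spread was estimated. With the forebrain libraries fitted alone, Pdlim3 (limma adjusted p = 0.0154) and Il33 (0.0436) both passed, and without the WT-Tag hindbrain library of experiment 1, which enters the shared spread only, they also passed (0.0103 and 0.0275). Pdlim3 alone also passed without the WT-Tag hindbrain library of experiment 2. The astrocyte sum was 352 to 428 FPKM with K27M and 459 to 773 with WT-Tag, a difference of the same direction as in hindbrain, and its part was not tested.

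Averaged over region, Il33, Pdlim3, Mtmr11 and Phldb2 passed, 4 of 9, where 5.22% of all genes did (2.92% higher, 2.3% lower). Nothing is read from this share either, since the same libraries chose the genes. For this comparison the log2(FPKM + 1) values of the forebrain and hindbrain culture that share a letter in their names, and may share an embryo, were averaged, which leaves 3 culture means for each genotype. Il33 changed by −1.52 ± 0.14 (SE, limma adjusted p = 0.00687), Mtmr11 by −0.67 ± 0.08 (0.0115), Pdlim3 by 1.01 ± 0.15 (0.0194) and Phldb2 by 0.76 ± 0.11 (0.0194). Cacna2d1 (0.45 ± 0.10, adjusted p = 0.0508) and Nptx2 (1.16 ± 0.33, 0.0869) had positive values in both regions and did not pass. Calls for Pdlim3, Mtmr11 and Phldb2 were lost without any 1 of the culture means other than WT-Tag 1 (adjusted p up to 0.0987), and Il33 was kept in each of these omissions (up to 0.0463). Without WT-Tag culture mean 1, 7 of 9 passed, and without experiment 3 none did.

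**Figure D3:**
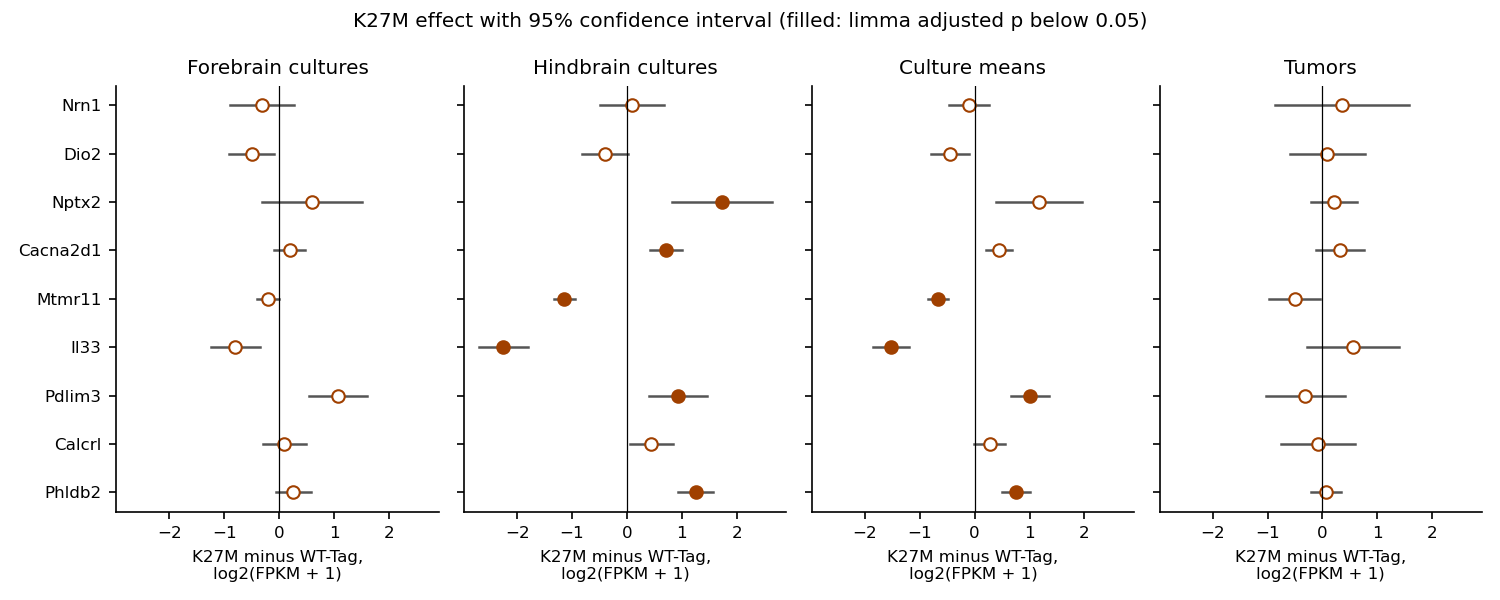
K27M minus WT-Tag difference in log2(FPKM + 1) of the 9 genes (points) with the 95% confidence interval (lines) in forebrain cultures, hindbrain cultures, culture means over both regions and tumors. Filled points had a limma adjusted p below 0.05: 0 genes in forebrain, 6 in hindbrain, 4 in the culture means and 0 in tumors.

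The tumors are the libraries that did not enter the choice of genes. None of the 9 genes passed there, where 0.0846% of the 15360 genes tested did (13 genes, 0.0456% higher and 0.0391% lower) and 7.19% had an unadjusted p under 0.05. Of the 9, Mtmr11 alone was under 0.05 without adjustment. Mtmr11 was at 1.36 (lowest), 6.10 (median) and 12.9 (highest) FPKM in the 9 WT-Tag tumors and at 0.902, 3.61 and 7.01 in the 20 K27M tumors. The ranges overlapped, but only 1 of 20 K27M tumors was above the WT-Tag median. The means were 5.99 ± 3.46 (SD, n = 9) and 3.55 ± 1.35 (SD, n = 20). The log2 change was −0.51 ± 0.23 (SE), with limma p-values of 0.0315 unadjusted and 0.655 adjusted. Without WT-Tag tumors 8 and 9 it was −0.28, of the same sign as in the cultures.

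Il33 had a positive value in tumors, where it was negative in the cultures, and did not pass. It was at 4.64 (lowest), 6.42 (median) and 20.7 (highest) FPKM in WT-Tag tumors and 1.45, 11.02 and 101 in K27M tumors, the highest being tumor 15. Of the K27M tumors, 17 of 20 were above the WT-Tag median, but the spread within each group was wide, and the log2 change was 0.55 ± 0.41 (SE, limma adjusted p = 0.798, 95% interval −0.28 to 1.39). Cacna2d1 was at 1.83, 5.46 and 7.77 FPKM in WT-Tag and 1.54, 7.39 and 11.5 in K27M tumors, with 16 of 20 above the WT-Tag median (0.32 ± 0.22, limma adjusted p = 0.776). Nptx2 was low in both, at 0.0230, 0.875 and 3.77 FPKM and 0.174, 1.36 and 3.48, also with 17 of 20 above that median (0.21 ± 0.21, limma adjusted p = 0.841).

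The other 5 genes had log2 changes smaller than their SE. Pdlim3 was at 0.774, 4.85 and 31.0 FPKM (lowest, median and highest) in WT-Tag tumors, where tumor 9 was the highest, and at 1.11, 4.09 and 10.2 in K27M tumors (log2 change −0.31 ± 0.35 SE, adjusted p = 0.868). Phldb2 was at 0.659, 1.58 and 2.75 FPKM and at 0.795, 1.64 and 3.22, with the narrowest interval of the 9 (−0.20 to 0.34). Calcrl was at 2.60, 8.02 and 20.3 FPKM and at 1.88, 8.93 and 16.7. Dio2 was at 0.546, 4.29 and 14.4 FPKM and at 0.721, 4.78 and 11.97, and Nrn1 at 0.285, 9.16 and 19.9 and at 0.125, 12.8 and 32.4. Without WT-Tag tumors 8 and 9 the sign turned for Dio2 (0.09 to −0.13), Nrn1 (0.35 to −0.27), Calcrl (−0.09 to 0.02) and Pdlim3 (−0.31 to 0.03).

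Markers of other cell types were higher in the tumor pieces than in the cultures. The summed FPKM of 8 neuronal genes was 51.3 to 580 in tumors and 3.76 to 8.56 in neurospheres, that of 8 endothelial genes 18.5 to 60.4, that of 7 microglial genes 106 to 363 and that of 8 mature oligodendrocyte genes 321 to 1677. The mature oligodendrocyte sum had a median of 538 in WT-Tag and 1080 in K27M tumors. The summed FPKM of the 6 forebrain factors was 0.889 to 3.19 (median 1.83) in WT-Tag and 0.066 to 1.91 (median 0.521) in K27M tumors, mostly Lhx2 (median 1.23 and 0.228). The part of these markers in the levels of the 9 genes was not tested.

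**Figure D4:**
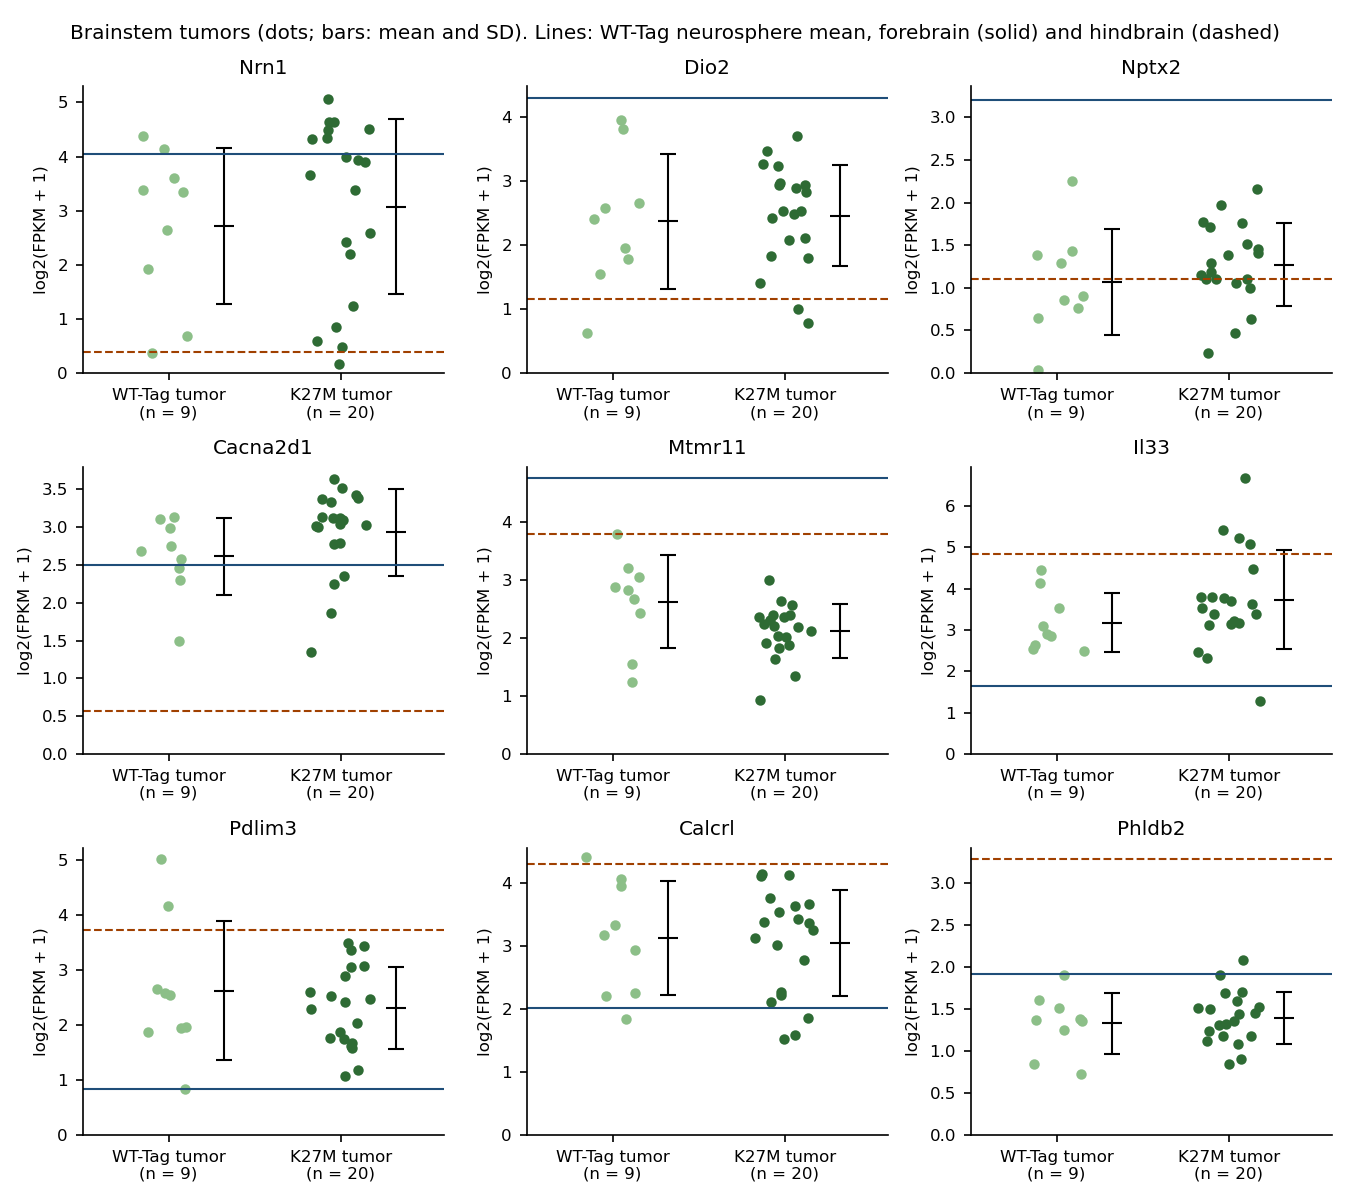
log2(FPKM + 1) of the 9 genes in 9 WT-Tag and 20 K27M tumors (dots), with the mean and SD of each group as bars. The solid and dashed lines are the WT-Tag forebrain and hindbrain neurosphere means; Mtmr11 and Phldb2 lie below both lines in most tumors, and the genotype ranges overlap for all 9 genes.

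Where the brainstem tumors lay relative to the cultures differed between the 9 genes and, for some of them, between the genotypes, whose culture ranges also differ. This sets tissue against culture and is a description. Mtmr11 was below the libraries of both regions of its genotype in 8 of 9 WT-Tag and 18 of 20 K27M tumors, and Phldb2 in 8 of 9 and 19 of 20. Nptx2 was below both in 20 of 20 K27M tumors but in 1 of 9 WT-Tag tumors, of which 7 were within the WT-Tag hindbrain range. Il33 was above the K27M hindbrain cultures in 17 of 20 K27M tumors, whereas 8 of 9 WT-Tag tumors lay between the WT-Tag regions. Cacna2d1, a forebrain gene among the cultures, was above the forebrain cultures in 6 of 9 and 14 of 20 tumors. Nrn1 was above them in 1 of 9 and 10 of 20. Dio2 lay between the regions in 8 of 9 and 17 of 20, Calcrl in 6 of 9 and 14 of 20, and Pdlim3 in 6 of 9 and 11 of 20. Pdlim3 was below both regions in 0 of 9 WT-Tag and 7 of 20 K27M tumors.

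Ordered by mean FPKM over the 6 groups, Il33 was highest in WT-Tag hindbrain cultures (28.5 ± 9.26 SD, n = 3), then in K27M tumors (18.3 ± 22.2, n = 20), WT-Tag tumors (9.17 ± 5.72, n = 9), K27M hindbrain (5.03 ± 0.966, n = 3), WT-Tag forebrain (2.13 ± 0.290, n = 3) and K27M forebrain cultures (0.799 ± 0.120, n = 3). Neighbours in this order overlapped except the last 2 pairs. Mtmr11 ran from WT-Tag forebrain (26.004) through K27M forebrain (22.5) and WT-Tag hindbrain (12.9) to WT-Tag tumors (5.99), K27M hindbrain (5.31) and K27M tumors (3.55), and its 3 highest groups did not overlap with each other. Phldb2 ran from K27M hindbrain (22.3) through WT-Tag hindbrain (8.92), K27M forebrain (3.50) and WT-Tag forebrain (2.77) to K27M (1.69) and WT-Tag tumors (1.58). Its 4 culture groups were separate and the tumors overlapped with the lowest of them. Dio2 and Nrn1 were highest in WT-Tag forebrain cultures, Nptx2 in K27M forebrain cultures, Calcrl and Pdlim3 in K27M hindbrain cultures and Cacna2d1 in K27M tumors.

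Partners of the 9 genes were examined through 8 lists with 94 genes, 93 of them in the table. In hindbrain cultures 57 could be tested, and 7 were higher and 7 lower with K27M, where 13.5% of all genes tested passed (8.42% higher, 5.13% lower). The lists were also drawn up with earlier results of these data known. Around Il33, the receptor chain Il1rl1 did not pass the filter on low values, and the related cytokine Il18 fell from 16.8 ± 2.86 to 8.63 ± 0.408 FPKM (SD, n = 3 each; log2 change −0.87, limma adjusted p = 0.0129). Around Calcrl, its partner Ramp1, which gives it affinity for calcitonin gene-related peptide, fell from 46.1 ± 3.45 to 31.1 ± 1.41 FPKM (−0.55, limma adjusted p = 0.0198), and the ligand gene Adm, adrenomedullin, rose from 18.1 ± 6.32 to 37.3 ± 8.26 FPKM (1.03, 0.0156).

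Around Pdlim3, the family members Pdlim1 (log2 change 1.22, limma adjusted p = 0.00737) and Pdlim4 (0.46, 0.0429) and the alpha-actinin gene Actn1 (0.50, 0.0415) rose, 3 of 6 tested, with a list median of 0.34 against 0.09 for all genes. The calls of Pdlim4 and Actn1 were each lost in 9 of 12 single-library omissions (adjusted p up to 0.138 and 0.154), without the filter and with hindbrain fitted alone. Around Cacna2d1, its ligand gene Thbs1 rose from 2.67 ± 1.32 to 11.3 ± 3.31 FPKM (1.76, limma adjusted p = 0.00471), 1 of 6 tested. Around Nrn1 and Nptx2, 3 of 8 fell, the AMPA receptor genes Gria4 (−2.60, limma adjusted p = 0.00227) and Gria2 (−0.93, 0.00521) and the BDNF receptor gene Ntrk2 (−0.55, 0.0267), with a list median of −0.43. Nptx2 itself rose, and Nptx1 was at 33.5 ± 2.98 against 23.9 ± 7.54 FPKM (0.51, limma adjusted p = 0.131).

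Around Mtmr11, the phosphatase family had 1 of 12 lower, Mtmr10 (log2 change −0.57, limma adjusted p = 0.0173), and a median of 0.06. Around Phldb2, the adhesion proteins Kank1 (−1.06, limma adjusted p = 0.0155) and Kank2 (0.71, 0.0268) moved in opposite directions, and the other 7 of 9 tested did not pass. Around Dio2, the thyroid hormone target Klf9 rose (0.46, limma adjusted p = 0.0310), 1 of 6. The most abundant partners over the 12 cultures, by mean FPKM, were Pdlim5 (46.7), Ramp1 (34.9), Clasp2 (31.9), Thra (26.7), Mtmr6 (25.2), Ntrk2 (24.9), Nptx1 (24.9), Mtmr2 (24.5), Ncor1 (22.3), Adm (21.2), Il18 (18.8), Kif21a (17.1), Actn4 (16.2), Irak1 (10.7), Thbs1 (4.80) and Cacnb3 (3.42).

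Without experiment 3 the count of these calls in hindbrain fell from 14 to 2, Gria4 and Thbs1, with hindbrain fitted alone to 3, and without the filter to 9. Over single-library omissions it was 4 to 19. Besides Pdlim4 and Actn1, Klf9 was lost in 5 of 12 omissions and Kank1, Kank2, Ntrk2 and Ramp1 in 4 each. Adm and Mtmr10 were lost in 3 each and Il18 in 2, while Gria2, Gria4, Pdlim1 and Thbs1 were kept in all. Klf9 was also lost with quantile normalization (limma adjusted p = 0.0525). In forebrain 0 of 57 passed, and in tumors 0 of 78. In the culture means 9 passed, 3 higher (Adm, Pdlim1 and Thbs1) and 6 lower (Gria2, Gria4, Il18, Kank1, Ntrk2 and Ramp1), which fell to 0 without experiment 3 and to 0 without the filter, and ran from 0 to 20 over omissions of single means.

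The genes whose level most resembled each of the 9 were listed by Pearson's r of log2(FPKM + 1), as a description without a test. Over the 12 neurosphere libraries the r values printed are the highest among all genes tested, so they are high by selection. The differences of region and genotype between these libraries were not removed. Dio2 was nearest to Prdx6 (r = 0.984) and Emx2os (0.9835), Nrn1 to Emx2os (0.979), Nptx2 to Peg12 (0.972) and Sept11 (0.964), Cacna2d1 to Pdlim4 (0.978) and Bmper (0.956), and Mtmr11 to Lbh (0.983) and Col11a1 (0.972). Il33 was nearest to Ncam2 (0.9754) and Gbp9 (0.971), Calcrl to Rnf43 (0.987) and Lin7a (0.9865), Pdlim3 to Ano6 (0.986) and Rbms1 (0.978), and Phldb2 to Nr2f2 (0.992) and Zfp217 (0.990). Nr2f2 is a transcription factor, and Emx2os lies beside the forebrain factor gene Emx2.

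Over the 29 tumors, with the genotype means removed, the resemblance was weaker except for Nrn1, which followed Slc17a6 (r = 0.990), the vesicular glutamate transporter and a neuronal marker here. Dio2 was nearest to Tmem229a (0.822) and the glial GABA transporter Slc6a11 (0.816). Il33 was nearest to Tmod1 (0.849) and 4930579C15Rik (0.796), Calcrl to Elp4 (0.811) and Zfp558 (0.804), Pdlim3 to Dnaic2 (0.797) and Nfatc3 (0.794), Mtmr11 to Vav3 (0.791) and Crebzf (0.784), Phldb2 to Zfp932 (0.795) and Gm15446 (0.794), and Nptx2 to Hivep2 (0.768) and Sdc4 (0.746). Cacna2d1 was nearest to the entries Mir3072 (0.830) and Mir541 (0.822). Among the 9 genes in tumors the strongest positive r was between Dio2 and Nrn1 (0.60) and the strongest negative between Dio2 and Pdlim3 (−0.58). In neurospheres these pairs had 0.96 and −0.95, with the regional difference left in. There the choice of the genes by region fixes the sign, so the tumor and neurosphere values are not compared. The tumors differ in relative depth (0.441 to 1.765) and in cell makeup, and these differences were not removed.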

How the data were processed

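RNA was extracted with Trizol and stranded total RNA libraries (TruSeq) were made, per the labels' protocols. Per the submitters' processing notes, the tools were CASAVA, TopHat2 and STAR, without versions or roles, and the build was mm9. The authors deposited 1 table of FPKM values with 3 decimals, and the sources used here do not give the counting tool, the annotation or the use of strand, so antisense and overlapping genes are uncertain. The 9 genes and all lists were chosen with earlier results of these data known.

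FPKM values were taken to log2(FPKM + 1) and tested with limma 3.58.1 (R 4.3.3), 2-sided, with a mean-variance trend and Benjamini-Hochberg adjustment over all genes tested. The 4 neurosphere groups were fitted together on 13190 genes (FPKM of at least 1 in 3 libraries), culture means separately on the same genes, and tumors on 15360 genes (at least 1 in 9 libraries). The threshold was 0.05. Log2 changes on this scale understate changes of low genes. The test was checked on simulated data. All 9 genes are named, together with partner genes that passed or were the 2 most abundant of their list, and the 2 genes most alike in each sample set. Results that name some other genes are not reported here. Experiment ids label shared experiments and so pair the K27M and WT-Tag cultures. The correlation of their deviations was 0.443, −0.234 and 0.352 in forebrain and 0.412, 0.152 and 0.438 in hindbrain. Between K27M and WT-Tag cultures of different experiments it ran from −0.475 to 0.441 in forebrain and from −0.345 to 0.094 in hindbrain. Alternatives were a pseudocount of 0.1, no filter, quantile normalization, the experiment as a block, each region alone, labelled sex in tumors, and omission of experiments, tumors or single libraries. Promoters came from RefSeq.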

Additional observations from a re-analysis of the deposited data

How the results depend on the processing

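Direction and calls of the 9 genes were kept in most settings: outside single omissions, in 58 of 63 values in forebrain, 51 of 63 in hindbrain, 38 of 45 in the culture means and 41 of 45 in tumors. Without single libraries, means or tumors, they were kept in 105 of 108, 97 of 108, 35 of 54 and 255 of 261. For each region these omissions include libraries of the other region. Those enter the shared spread only and cannot change the direction. In forebrain and tumors no gene was called in the main fit, so a kept value there stayed uncalled with the same sign. Hindbrain calls were lost in 5 omissions for Pdlim3 and 4 for Nptx2. Culture-mean calls were lost in 5 of 6 for Pdlim3, Mtmr11 and Phldb2. With the experiment as a replicate block, which pairs K27M and WT-Tag cultures, 0 of 9 genes passed in forebrain, 6 in hindbrain and 4 in the culture means, as without it, and over all genes 54, 2258 and 491. The block changed calls only among partner genes: Pdlim4 in hindbrain (limma adjusted p = 0.050002) and Gria2, Ntrk2 and Ramp1 in the culture means (0.0572, 0.0586 and 0.0650) no longer passed. In forebrain, 2 of 9 passed with a pseudocount of 0.1, 1 with quantile normalization and 2 with the region fitted alone, and 0 to 2 without single libraries. Over all genes the forebrain count was 106 with quantile normalization, 79 with the region alone, 15 without experiment 1 (an alternative chosen after seeing the data), 0 without experiment 3, and 20 to 178 without single libraries. In hindbrain, 2 of 9 passed without experiment 3, 3 with the region alone and 4 to 7 without single libraries. Over all genes the hindbrain count was 1045 without the filter, 100 without experiment 3, 212 with the region alone and 569 to 4220 without single libraries. Without the filter, Nptx2 (adjusted p = 0.0593) and Pdlim3 (0.0720) lost their hindbrain calls. In the culture means, 2 of 9 passed without the filter, 0 without experiment 3 and 1 to 7 without single means, and over all genes 82, 0 and 19 to 4587. In tumors 0 of 9 passed in every setting run, and the count over all genes was 26 without the filter, 8 without WT-Tag tumors 8 and 9 and 8 to 18 without single tumors.

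In the 4 comparisons the sign turned only for values smaller than their SE. In hindbrain, Nrn1 went from 0.10 to −0.30 with a pseudocount of 0.1 and −0.24 without experiment 3, and from −0.32 to 0.31 without single libraries. In the culture means its range without single means was −0.28 to 0.00047. In tumors without WT-Tag tumors 8 and 9, Dio2 was −0.13, Nrn1 −0.27, Calcrl 0.0204 and Pdlim3 0.0346. Without single tumors Dio2 ran from −0.13 to 0.29, Calcrl from −0.25 to 0.0746 and Phldb2 from −0.0067 to 0.14. The cause of these changes was not tested. Each omission of an experiment leaves fewer samples. The depth of each library is known only in relative terms, so differences at FPKM near 0, as for Nrn1 in hindbrain cultures, were not detectable with a stated precision.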
